A study of Mus musculus with 6 samples.

Results

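The genes described here make, break down and sense prostaglandins, the short-lived lipid signals formed from arachidonic acid. The 10 genes Ptgs1, Ptgs2, Ptges, Ptges2, Ptges3, Ptgis, Ptger2, Ptger4, Hpgd and Pla2g4a were taken by symbol from a table of 12830 genes, and all 10 had a row. They were picked with earlier results of the same comparison known, so their values describe that comparison and the counts among them are no independent support. A gene needed a row in the table to be taken, and the lowest mean count of any row was 22.3 per library. The lowest mean count of a prostaglandin gene was 174.5 per library, for Ptger2.

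The libraries were made from primary mouse bone marrow stromal cells (BMSCs), which adhere to plastic and can turn into osteoblasts, the cells that make bone. Per the labels the cells had osteogenic induction and a time of 2 days, and per the series description the donors were 8-week-old mice. The cKO group (3 libraries, labelled CKO) came from Prx1;Rras2f/f mice, in which both alleles of Rras2 are floxed and a Prx1 construct is present. The FF group (3 libraries, labelled Rras2FF) came from Rras2f/f mice, which carry the same floxed alleles without the construct and are called WT in the series description. The Prx1 promoter is used to act in limb mesenchyme, so blood-derived cells in such cultures would not be its target. Rras2, which encodes a Ras-related GTPase, had 26.7, 29.0 and 26.8 CPM (counts relative to each library total, after edgeR TMM scaling) in cKO, against 49.7, 50.1 and 44.7 CPM in FF. Whether the 3 libraries of a group are 3 animals is not stated in the labels, and the p-values then cover only the spread among these libraries, which could be technical.

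The library totals over these rows ran from 31934714 to 37561452 counts. The stromal and osteoblast markers Prrx1, Pdgfra, Pdgfrb and Runx2 were all present, and all 13 genes of that marker list had a row. The 15 macrophage markers also all had rows, and Lyz2 alone stood at 16930 to 17437 CPM in cKO and at 15299 to 16540 CPM in FF. The cultures therefore held transcripts of both kinds of cell. Of the other lists, interferon response genes summed to between 353 and 662 CPM in the cKO libraries and to between 412 and 2109 CPM in the FF libraries, with the highest sum in FF replicate 1.

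Prostaglandin synthesis starts when the cytosolic phospholipase A2 encoded by Pla2g4a releases arachidonic acid from membranes. A cyclooxygenase, encoded by Ptgs1 or Ptgs2, turns it into prostaglandin H2, and terminal synthases turn that into prostaglandin E2 (Ptges, Ptges2, Ptges3) or prostacyclin (Ptgis). Prostaglandin E2 acts through receptors that include EP2 (Ptger2) and EP4 (Ptger4), both of which raise cyclic AMP, and 15-hydroxyprostaglandin dehydrogenase (Hpgd) inactivates it. In bone this pathway is known for its part in bone formation under load and in fracture repair, with Ptgs2 as the inducible step.

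Ptgs2 stood well below its FF level in cKO, Pla2g4a was modestly lower, and the other 8 genes did not pass the test. Of the 10 genes, 2 were called lower and 0 were called higher. A call here is an adjusted p below 0.05 in edgeR's quasi-likelihood test, adjusted by Benjamini and Hochberg's method over all 12830 genes. Over all genes the same fit called 4.84%, with 2.74% lower in cKO and 2.10% higher. The median log2 fold change, cKO over FF, was -0.13 over the 10 genes and 0.00058 over all genes. Every cKO library was below every FF library for 5 of the 10 genes, against 11.2% of all genes, and above for 1, against 11.3% of all genes. At an unadjusted p below 0.05 there were 6, against 17.3% of all genes. DESeq2 called 5 of the 10 genes, against 6.61% of all genes it tested. In bulk samples fewer cells of a type and less RNA per cell cannot be told apart.

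**Figure D1:**
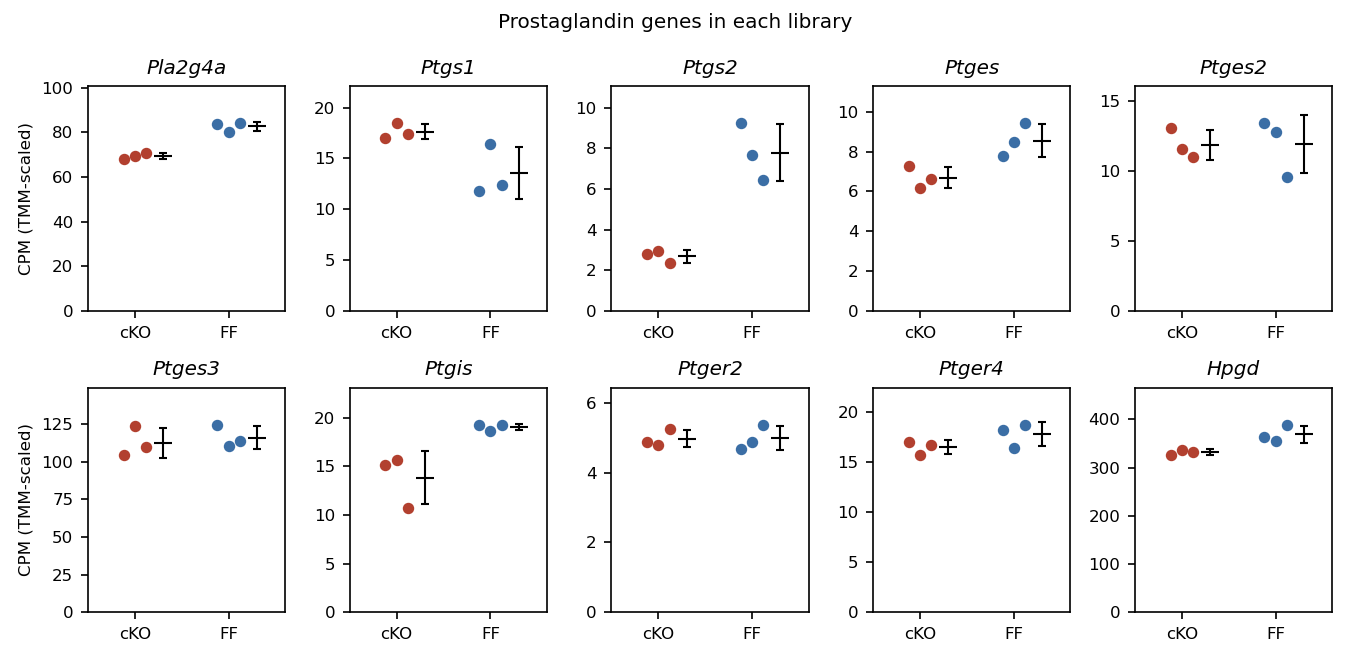
TMM-scaled CPM of each prostaglandin gene in the 3 cKO and the 3 FF libraries, with each vertical axis starting at 0. Points are libraries in the order of their replicate numbers and the bar beside them is the mean ± SD (n = 3). Ptgs2 lies between 2.34 and 2.94 CPM in cKO and between 6.45 and 9.23 CPM in FF.

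Per length, the 10 genes covered a wide range, and their order was nearly the same in both groups. By the deposited FPKM, which divides counts by gene length and library size, Hpgd was the highest with 179 ± 2.93 FPKM in cKO and 201 ± 10.7 FPKM in FF (SD, n = 3 each). Ptges3 followed with 51.5 ± 4.23 FPKM in cKO and 53.6 ± 2.96 FPKM in FF, and Pla2g4a with 22.1 ± 0.272 FPKM in cKO and 26.5 ± 0.569 FPKM in FF. Ptgis, Ptgs1 and Ptger4 lay between 3.70 and 8.44 FPKM in all 6 libraries. In cKO the library range of Ptgis overlapped those of Ptgs1 and of Ptger4, and in FF the ranges of Ptger4 and Ptgs1 overlapped. Ptges2 and Ptges lay between 1.54 and 2.41 FPKM, with overlapping ranges in FF and separate ranges in cKO. The FF range of Ptges2 also overlapped that of Ptgs2. The lowest mean in FF was that of Ptger2, at 1.23 ± 0.101 FPKM, whose range overlapped that of Ptgs2. The lowest mean in cKO was that of Ptgs2, at 0.547 ± 0.0690 FPKM, below every library of Ptger2 there. The mean FPKM of the highest gene was 328 times that of the lowest in cKO and 163 times in FF.

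**Figure D2:**
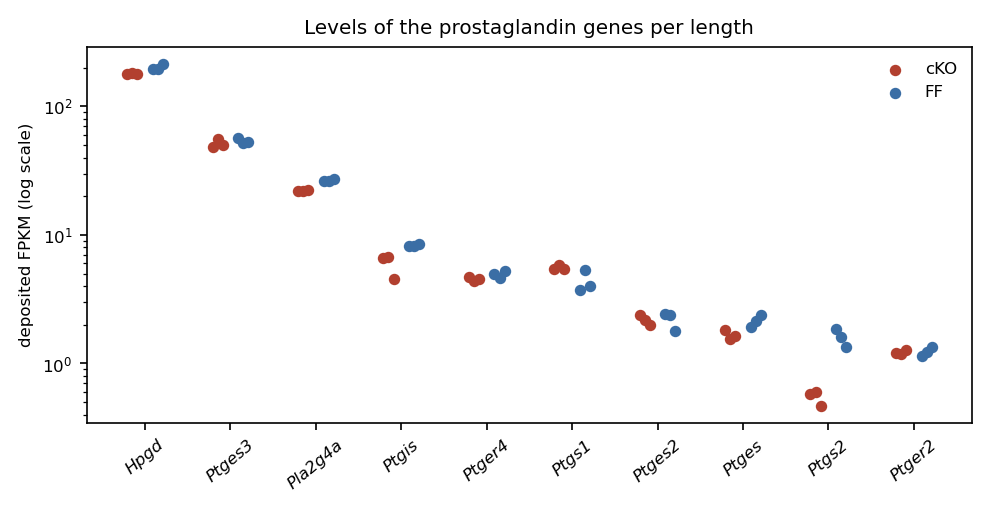
Deposited FPKM of the 10 prostaglandin genes on a log scale, ordered by their mean in FF, with 1 point per library. Hpgd is the highest gene in every library, and Ptgs2 is the lowest in all 3 cKO libraries and in FF replicate 3.

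The inducible cyclooxygenase gene Ptgs2 (ENSMUSG00000032487, mm10 chromosome 1, 150100031 to 150108227, plus strand) showed the largest difference of the 10. It had 2.82, 2.94 and 2.34 CPM in cKO replicates 1, 2 and 3, against 9.23, 7.68 and 6.45 CPM in FF replicates 1, 2 and 3. The groups did not overlap, and the highest FF value was in replicate 1. These levels rest on 99, 102 and 85 counts in cKO and 319, 291 and 207 counts in FF, so Ptgs2 was a gene of low count here. The log2 fold change of Ptgs2 was -1.53 (standard error 0.173, 95% interval -1.90 to -1.16, edgeR adjusted p = 0.000134), so its level in cKO was 2.88-fold lower. Of the 351 genes called lower, 11 had a log2 fold change at least as negative, Ptgs2 included. Without FF replicate 1, where interferon response genes were highest, its log2 fold change was -1.39 (edgeR adjusted p = 0.00104), and it was called in all 15 alternative fits.

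The stretch around the Ptgs2 start is shown because this gene differed most, and that of Ptgs1 because it encodes the same kind of enzyme and lay in the other direction. Each runs from 100 bases before to 30 bases after the RefSeq start (GRCm38.p6, plus strand), at chr1:150099931-150100060 for Ptgs2 and chr2:36230326-36230455 for Ptgs1. Capitals mark matches to any of 4 motifs, searched on both strands and chosen with these sequences in view. They were the E-box (CACGTG), the core of the cyclic AMP response element (TGACG), the palindrome bound by C/EBP factors (TTGCGCAA) and the TATA box (TATAAA).
Ptgs2: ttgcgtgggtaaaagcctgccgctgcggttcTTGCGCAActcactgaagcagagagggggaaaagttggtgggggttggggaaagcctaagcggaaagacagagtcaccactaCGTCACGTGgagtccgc
Ptgs1: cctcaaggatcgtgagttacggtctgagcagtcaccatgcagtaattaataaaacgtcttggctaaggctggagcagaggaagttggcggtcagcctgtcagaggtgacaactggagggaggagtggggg
The Ptgs2 stretch held the C/EBP palindrome from base -69, the cyclic AMP response core on the minus strand from base 14 and the E-box from base 17, counted from the start as base 1, and the matches at bases 14 and 17 overlap. None of the 4 motifs matched in the Ptgs1 stretch. Of 32817 RefSeq promoter windows of the same length, 0.0823% held the C/EBP palindrome, 12.9% the cyclic AMP response core, 3.98% the E-box and 6.39% the TATA box. A match is a description of the letters and not evidence of binding.

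Ptgs1, the constitutive cyclooxygenase gene (ENSMUSG00000047250, mm10 chromosome 2, 36230426 to 36252272, plus strand), lay in the other direction. It had 17.0, 18.4 and 17.4 CPM in cKO replicates 1, 2 and 3, against 11.8, 16.4 and 12.4 CPM in FF replicates 1, 2 and 3. Every cKO library was above every FF library, and FF replicate 2 came closest to the cKO values. The log2 fold change was 0.38 with a 95% interval of 0.13 to 0.63, and it did not pass (edgeR adjusted p = 0.0914). It passed in DESeq2 (adjusted p = 0.0487), in edgeR with the replicate number as a block (0.0417) and without FF replicate 2, where the log2 fold change was 0.54 (0.0129). Its adjusted p ranged from 0.0129 to 0.288 over the alternatives. Ptgs1 is also a gene of blood-derived cells. The 15 macrophage markers summed to between 26117 and 26914 CPM in the cKO libraries and to between 24052 and 25420 CPM in the FF libraries. Most of each sum was Lyz2, with means of 17134 CPM in cKO and 15801 CPM in FF. Lyz2 was not called (log2 fold change 0.12, edgeR adjusted p = 0.293), and the median log2 fold change of the 15 was 0.049. Of the 15, 2 were called higher and 1 lower, against 2.10% and 2.74% of all genes. In cKO 5 lay wholly above FF and 1 wholly below, against 11.3% and 11.2% of all genes. Tyrobp, an adaptor of myeloid receptors, and Mrc1, the mannose receptor, were higher at log2 fold changes 0.26 and 0.18, whereas Cd14, a receptor for bacterial lipopolysaccharide, was at -0.18 (edgeR adjusted p = 0.0110, 0.0486 and 0.0198). With 1 library left out, Tyrobp was called in 3 of 6 fits, Mrc1 in 1 and Cd14 in 2. The 5 megakaryocyte and mast cell markers summed to 164 to 212 CPM in the cKO libraries and to 152 to 171 CPM in the FF libraries. Their median log2 fold change was -0.024. Of these 5, edgeR called 0, against 4.84% of all genes, and DESeq2 called 2, against 6.61% of all genes it tested. The part of either marker list in the Ptgs1 values was not tested.

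Within each library Ptgs2 was below Ptgs1 per length, and more so in cKO. Ptgs2 FPKM divided by Ptgs1 FPKM was 0.106, 0.102 and 0.0857 in cKO replicates 1, 2 and 3, against 0.501, 0.301 and 0.335 in FF replicates 1, 2 and 3. The groups did not overlap in this ratio. The mean log2 ratio was -3.36 ± 0.163 in cKO and -1.44 ± 0.388 in FF (SD, n = 3 each), a difference of -1.92, cKO minus FF, or a ratio 3.79-fold lower in cKO. The exact two-sided permutation test gave p = 0.10, the smallest that 3 against 3 libraries allow. Both genes were chosen with this comparison known, so the ratio is a description too. With each library left out in turn the difference stayed between -2.07 and -1.70.

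**Figure D3:**
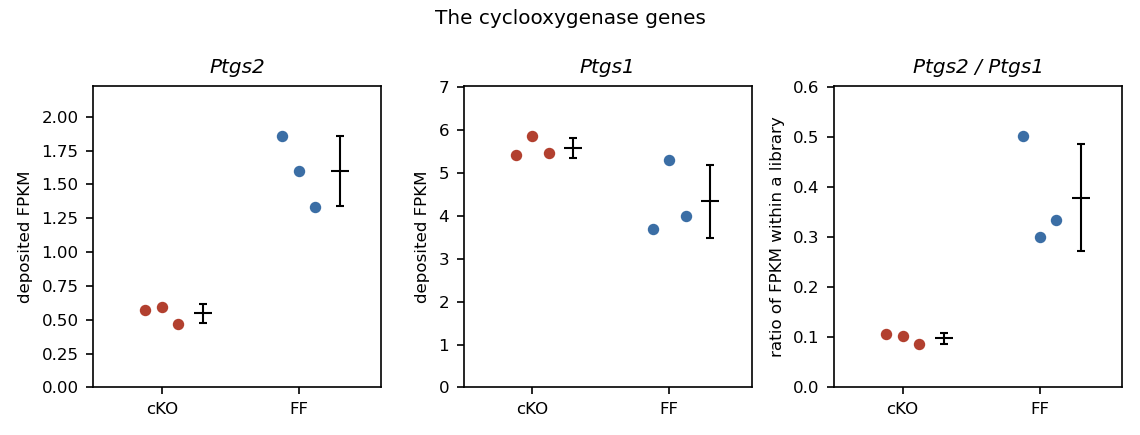
Deposited FPKM of Ptgs2 and of Ptgs1, and their ratio within each library, with axes from 0. Points are libraries and bars are mean ± SD (n = 3). The ratio lies between 0.0857 and 0.106 in cKO and between 0.301 and 0.501 in FF.

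Pla2g4a, which encodes the phospholipase that supplies arachidonic acid, was lower by a small but even amount. It had 68.2, 69.4 and 70.9 CPM in cKO replicates 1, 2 and 3, against 83.9, 80.3 and 84.0 CPM in FF replicates 1, 2 and 3. The SD was 1.36 CPM in cKO and 2.14 CPM in FF, and the groups did not overlap. The log2 fold change of Pla2g4a was -0.25 (standard error 0.0488, edgeR adjusted p = 0.00770), and its level in cKO was 16.0% lower. Without FF replicate 3 the adjusted p was 0.0504, and the call held in the other 14 of 15 alternatives. Pla2g4a (ENSMUSG00000056220, minus strand) lies on mm10 chromosome 1 from 149829618 to 149961290, so it is a neighbour of Ptgs2. The genes are 138740 bases apart and transcribed away from each other, with 3 GENCODE genes and no protein-coding gene between them. Within 1 Mb of Ptgs2, 3 further genes had a row, and none of them passed. Odr4, Tpr and Prg4 had log2 fold changes of 0.04, -0.04 and 0.08 (edgeR adjusted p = 0.747, 0.722 and 0.869).

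None of the terminal synthase genes passed the edgeR test. Ptges, the inducible membrane-bound prostaglandin E synthase that is often coupled to Ptgs2, had 7.27, 6.19 and 6.61 CPM in cKO, against 7.78, 8.47 and 9.41 CPM in FF. The groups did not overlap, but the gene did not pass, with a log2 fold change of -0.35 and a 95% interval of -0.63 to -0.08 (edgeR adjusted p = 0.151). It was not called in any of the 15 alternatives. Ptgis, the prostacyclin synthase, had 15.2, 15.6 and 10.7 CPM in cKO replicates 1, 2 and 3, against 19.2, 18.7 and 19.3 CPM in FF replicates 1, 2 and 3. All cKO libraries lay below all FF libraries, and cKO replicate 3 lay well below the other cKO libraries. Its log2 fold change was -0.46 with a 95% interval of -0.73 to -0.19 and did not pass (edgeR adjusted p = 0.0562). It passed in DESeq2 (0.00826), with the replicate block (0.0407) and without cKO replicate 1 (0.0388), and without cKO replicate 3 the log2 fold change was -0.31 (0.110).

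For the other prostaglandin E synthases the groups overlapped. Ptges2, a membrane-associated synthase, had 13.1, 11.6 and 11.0 CPM in cKO, against 13.4, 12.8 and 9.57 CPM in FF. The log2 fold change of Ptges2 was -0.0049 with a 95% interval of -0.28 to 0.27 (edgeR adjusted p = 0.990). Ptges3, the cytosolic synthase that is also the HSP90 co-chaperone p23, had 104, 123 and 110.0 CPM in cKO, against 124, 110.2 and 114 CPM in FF. That of Ptges3 was -0.04 with a 95% interval of -0.19 to 0.10 (edgeR adjusted p = 0.803). GENCODE lists a pseudogene of it, Ptges3-ps, and how reads shared with it were counted is not given in the sources used here.

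Hpgd, the enzyme of the first step of prostaglandin breakdown, had 326, 337 and 334 CPM in cKO, against 364, 355 and 389 CPM in FF. The groups did not overlap, yet the difference was small, a log2 fold change of -0.15 with a 95% interval of -0.25 to -0.05, and it did not pass (edgeR adjusted p = 0.0776). It passed in DESeq2 (0.0288) and in none of the other 14 alternatives.

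Neither receptor gene passed, and in both the groups overlapped. Ptger2, the EP2 receptor gene, had 4.87, 4.78 and 5.26 CPM in cKO, against 4.69, 4.88 and 5.36 CPM in FF. Its log2 fold change was -0.00096 with a 95% interval of -0.32 to 0.31 (edgeR adjusted p = 0.998). Ptger4, the EP4 receptor gene, had 17.0, 15.7 and 16.7 CPM in cKO, against 18.2, 16.4 and 18.7 CPM in FF. Its log2 fold change was -0.11 with a 95% interval of -0.29 to 0.08 (edgeR adjusted p = 0.581). Both genes overlap annotated transcripts of the opposite strand, among them Ttc33 at Ptger4, and the strand setting of the authors' counting is not given in the sources used here.

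**Figure D4:**
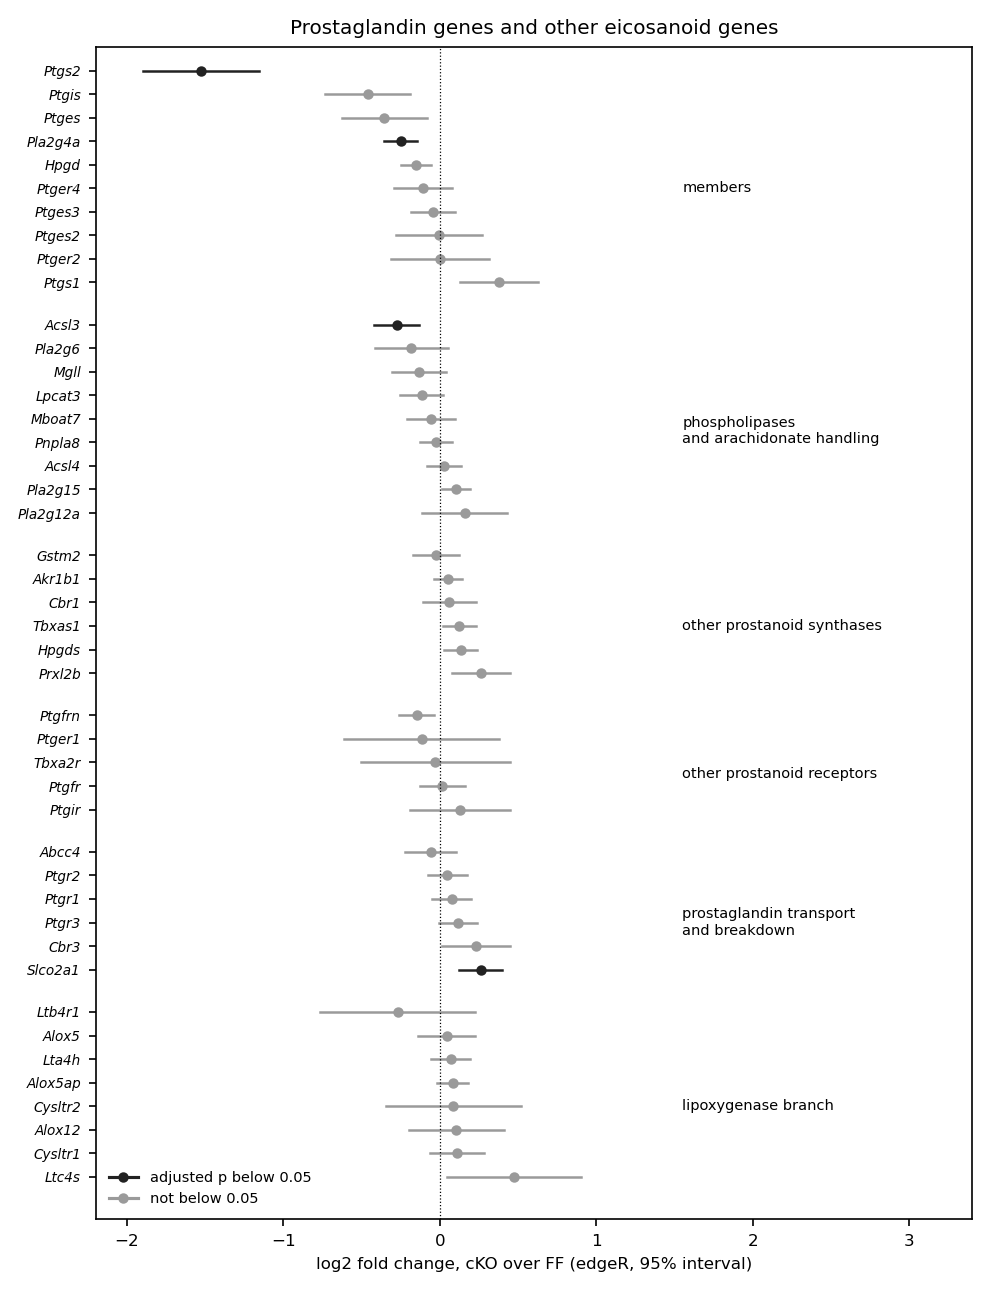
Log2 fold change, cKO over FF, with its 95% interval for the 10 prostaglandin genes and 34 other eicosanoid genes, grouped by role (edgeR). Dark points passed at an adjusted p below 0.05. Ptgs2 at -1.53 is the lowest value, and all the other genes lie between -0.46 and 0.47.

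A wider list of 53 genes of arachidonic acid metabolism outside the 10 had 34 members in the table. Of these, 1 rose and 1 fell, which is 5.88% of the 34 and close to the 4.84% of all genes. The median log2 fold change of the 34 was 0.055. In cKO 3 lay wholly below FF and 7 wholly above, beside 11.2% and 11.3% of all genes. The gene that fell was Acsl3, an acyl-CoA ligase that activates fatty acids, with 39.8, 44.2 and 40.8 CPM in cKO, against 52.1, 52.5 and 46.6 CPM in FF. Acsl3 fell by 0.28 on the log2 scale (edgeR adjusted p = 0.0286), a call that ended without FF replicate 1, FF replicate 2 or cKO replicate 3 (0.116, 0.148 and 0.0929), in limma-voom (0.0604) and edgeR without robust estimation (0.0737).

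The gene that rose was Slco2a1, which encodes the transporter that carries prostaglandins into cells ahead of their breakdown. It had 55.1, 53.8 and 54.8 CPM in cKO, against 41.6, 48.4 and 46.4 CPM in FF, and the groups did not overlap. Its log2 fold change was 0.26 (edgeR adjusted p = 0.0297). The call ended without FF replicate 1, FF replicate 3, cKO replicate 2 or cKO replicate 3 (0.140, 0.0752, 0.0816 and 0.0802), in limma-voom (0.0585) and edgeR without robust estimation (0.0719).

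By role, the wider list gave 0 calls elsewhere. None of the 6 other prostanoid synthases in the table passed, and the most abundant, Hpgds and Akr1b1, had log2 fold changes of 0.13 and 0.05 (edgeR adjusted p = 0.158 and 0.603). Hpgds makes prostaglandin D2 and is a gene of macrophages and mast cells. At an unadjusted p below 0.05, 3 of these 6 passed, against 17.3% of all genes. Of 5 other prostanoid receptor genes 0 passed, and Ptgfrn, a partner of the prostaglandin F receptor, and Ptgfr, that receptor, had log2 fold changes of -0.15 and 0.02 (edgeR adjusted p = 0.145 and 0.939). Ptger3, Ptgdr and Ptgdr2 had no row and are not analysed here. In the lipoxygenase branch, which makes leukotrienes, 0 of 8 passed, and Alox5ap and Lta4h had log2 fold changes of 0.08 and 0.07 (edgeR adjusted p = 0.398 and 0.596). At an unadjusted p below 0.05 there was 1 gene of the receptor list, the partner Ptgfrn. There was also 1 gene of the list of the lipoxygenase branch, against 17.3% of all genes. DESeq2 and limma-voom also called 0 genes in these 3 lists. DESeq2 and the leave-one-out fits called between 0 and 4 genes of the whole wider list.

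Genes known to control Ptgs2 were measured beside it. Of 24 listed regulators, among them NF-kB and C/EBP factors and proteins that bind its message, 22 had a row, 1 rose and 0 fell, which is 4.55% of the 22, close to the 4.84% of all genes. Their median log2 fold change was -0.0052. The gene that rose was Il1r1, the receptor for interleukin 1, with 22.5, 22.2 and 28.1 CPM in cKO, against 18.0, 17.3 and 18.2 CPM in FF. Its log2 fold change was 0.44 (edgeR adjusted p = 0.0129), and the call ended without FF replicate 2 or cKO replicate 3 (0.0807 and 0.0679), in limma-voom (0.0560) and edgeR without robust estimation (0.0509). Of 20 listed genes that respond to cyclic AMP, the second messenger of EP2 and EP4, 16 had a row and 0 passed in edgeR, DESeq2 and limma-voom. At an unadjusted p below 0.05 in edgeR there were 6, against 17.3% of all genes. The median log2 fold change of the 16 was -0.014. In cKO 3 of the 16 lay wholly below FF and 2 wholly above, against 11.2% and 11.3% of all genes. Rgs2 and Junb, the most abundant of them, had log2 fold changes of 0.04 and -0.22 (edgeR adjusted p = 0.830 and 0.166). Tnfsf11, the RANKL gene and a known target of prostaglandin E2 in bone, was 1 of the 2 wholly above and was chosen after its values were seen. It had 2.54, 2.79 and 1.57 CPM in cKO, against 1.24, 1.48 and 0.717 CPM in FF, and did not pass (log2 fold change 0.99, edgeR adjusted p = 0.0914). With the replicate number as a block Tnfsf11 passed (edgeR adjusted p = 0.0342, log2 fold change 1.02), and over all its alternatives the adjusted p ranged from 0.0342 to 0.300.

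The falls of Ptgs2 and Pla2g4a came in libraries whose stromal and osteoblast markers also differed. The 13 markers of that list summed to between 18157 and 20247 CPM in the cKO libraries and to between 22772 and 24019 CPM in the FF libraries. Prrx1, Pdgfra and Pdgfrb were a small part of each sum. Their means were 223, 98.7 and 165 CPM in cKO and 246, 101 and 170 CPM in FF. Of the 13, 8 lay wholly below FF in cKO and 2 wholly above, against 11.2% and 11.3% of all genes. In edgeR 3 were called lower and 2 higher, against 2.74% and 2.10% of all genes. DESeq2 and limma-voom each called 9 of the 13. Over all genes DESeq2 called 6.61% of those it tested, and limma-voom called 434 of 12830. The genes lower in cKO were Col1a1 and Col1a2, which encode fibrillar collagen of bone, at log2 fold changes -0.59 and -0.44, and Runx2, the transcription factor that starts the osteoblast programme, at -0.25 (edgeR adjusted p = 0.000584, 0.000734 and 0.0128). Cxcl12 and Lepr, which mark stromal cells of the marrow, both had log2 fold changes of 0.47 (edgeR adjusted p = 9.98e-05 and 0.00163). Runx2 was called in 3 of the 6 fits that leave out a library, and the other 4 in all 6. Not called in edgeR were the osteoblast genes Bglap, Sp7, Alpl and Ibsp, at log2 fold changes -1.87, -0.70, -0.66 and -0.43 (edgeR adjusted p = 0.116, 0.158, 0.117 and 0.0886). All 4 were called lower by DESeq2 (adjusted p = 0.0178, 0.00482, 0.00217 and 0.00869) and by limma-voom (adjusted p = 0.0230, 0.0202, 0.0173 and 0.0397). The stromal genes Prrx1, Pdgfra and Pdgfrb had -0.14, -0.04 and -0.05, and Spp1 had 0.17 (edgeR adjusted p = 0.114, 0.760, 0.787 and 0.171). The part of these differences in the values of Ptgs2, Pla2g4a, Ptgis and Ptges was not tested.

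The genes whose pattern was most like that of Ptgs2 over the 6 libraries were Fkbp5, Septin5, Zbtb1, Fads2 and Col5a2, by the Pearson correlation of log2(CPM + 1). Their correlations lay between 0.993 and 0.996, among 11024 genes whose mean reached 5 CPM. For all 5 the cKO libraries lay wholly below the FF libraries, with log2 fold changes between -0.55 and -0.19. With 6 libraries in 2 groups, a gene that differs between the groups can correlate highly with Ptgs2 for that alone. Of the 11024 genes, 398 had a correlation above 0.9. These correlations are a description and carry no test.

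**Figure D5:**
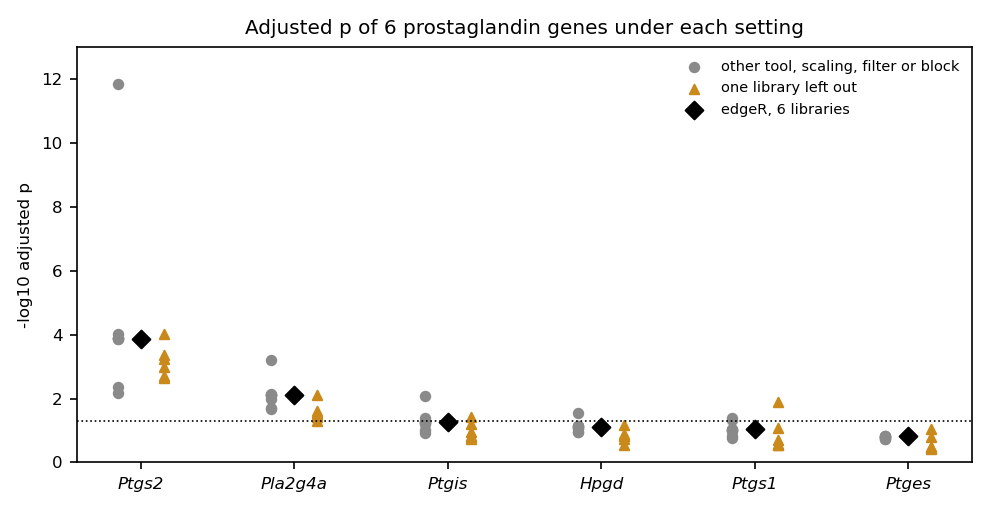
The -log10 of the adjusted p of 6 prostaglandin genes in the edgeR fit of all 6 libraries, in 9 fits with another tool, scaling, filter, robustness setting or block, and in 6 fits that leave out 1 library each. The dotted line marks an adjusted p of 0.05. Ptgs2 lies above it in every fit, Pla2g4a falls below it in 1 fit, and Ptges stays below it throughout.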

How the data were processed

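The members and gene lists were chosen with earlier results of these data known. RNA was sequenced from 6 BMSC libraries made with a stranded mRNA kit, per the labels' protocols. Per the submitters' processing notes the genome was mm10. For the aligner, the counter and the strand setting nothing is given in the sources used here. Per gene, the authors deposited raw counts and FPKM values, which divide counts by gene length and library size, per the file headers. The authors' deposited table also holds log2 fold changes, p-values and adjusted p-values of their own test, which are not printed here. FPKM was used to compare levels between genes. That includes the ratio of Ptgs2 to Ptgs1, which was then compared between the groups. Group differences of single genes were tested on counts.

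Counts of all 12830 genes were fitted in edgeR 4.0.16 (R 4.3.3) with TMM scaling, filterByExpr, which removed 0 genes, and the robust quasi-likelihood F test, without covariates. An adjusted p (Benjamini-Hochberg) below 0.05 was a call. Standard errors are the coefficient over the square root of F. The script was tested on simulated counts. CPM values are TMM-scaled. Depth was 31934714 to 37561452 counts per library. No pair of libraries of a group agreed within sampling noise. GENCODE M21 (mm10) gave coordinates, and RefSeq promoters (GRCm38.p6) matched 9 of the 10 genes. Alternatives used DESeq2 1.42.0, limma-voom (limma 3.58.1), other scalings and filters, a replicate block and each library left out. Named genes are the 10, Rras2, up to 6 called genes of each list or, where none was called, the 2 most abundant, Ptgs2's neighbours within 1 Mb and the 5 genes most like it. Outside that rule, Tnfsf11, Lyz2 and the uncalled stromal and osteoblast markers were named after their values were seen, and the remaining marker lists are given by counts or sums only. Calls in the lists of neutrophil, megakaryocyte and mast cell, and endothelial markers were 0 of 7, 0 of 5 and 0 of 7. There was 1 of 8 for osteoclast, 3 of 4 for lymphocyte and plasma cell and 0 of 14 for interferon response genes, against 4.84% of all genes. The osteoclast call and the 3 lymphocyte and plasma cell calls were all higher in cKO. The lymphocyte and plasma cell list summed to 295 to 357 CPM in the cKO libraries and to 181 to 198 CPM in the FF libraries. At an unadjusted p below 0.05 edgeR gave 1 neutrophil, 2 megakaryocyte and mast cell, 2 endothelial and 0 interferon response genes, against 17.3% of all genes. DESeq2 called 1, 2, 0 and 0 genes of these 4 lists, against 6.61% of all genes it tested, and limma-voom 0 in each.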

Additional observations from a re-analysis of the deposited data

How the results depend on the processing

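Ptgs2 kept its direction and its call in all 15 alternatives, with log2 fold changes from -1.65 to -1.39. Pla2g4a kept its direction and lost its call without FF replicate 3, and the leave-one-out range was -0.27 to -0.24. DESeq2 added calls for Ptgs1 (0.38), Ptgis (-0.46) and Hpgd (-0.15), so 5 of the 10 genes were called. Whether the same replicate numbers mark pairs is not settled. Deviations of same-numbered libraries correlated at -0.0359, 0.0913 and -0.0985, and only FF replicate 2 correlated best with its own number. With 3 libraries per group these values cannot decide it. With the number as a block, 4 genes were called, with added calls for Ptgs1 (0.39) and Ptgis (-0.48), 2 regulators and cyclic AMP response genes were called (Il1r1 and Tnfsf11), and Ptges2 had 0.0063. Over the leave-one-out fits Ptgs1 ranged from 0.29 to 0.54 and Ptgis from -0.56 to -0.31. Members called ranged from 1 to 3, wider list genes from 0 to 4, regulators and cyclic AMP response genes from 0 to 2, and all genes from 268 to 1166, against 621 with all libraries. The lowest and highest of these totals came without FF replicate 2 and without cKO replicate 1. Genes with a difference near 0 changed sign: Ptges2 ranged from -0.14 to 0.085, Ptges3 from -0.11 to 0.0087 and Ptger2 from -0.044 to 0.055 in the leave-one-out fits, and Ptger2 had 0.0038 in limma-voom. Limma-voom and edgeR without robust estimation each called 0 wider list genes and 0 regulators and cyclic AMP response genes, and edgeR without robust estimation called 399 genes in all. With a mean of at least 5 CPM required, Ptger2 was left out. The causes were not tested. The log2 ratio of Ptgs2 to Ptgs1 moved by less than the FF SD of 0.388 in all alternatives run, and without FF replicate 1, at -1.70, by more than the cKO SD of 0.163. Ptgs2 has about 100 counts per cKO library, which limits its precision.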
